A study of Rattus norvegicus with 9 samples.

Results

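The collagen genes of the rat superior mesenteric artery (SMA) were examined, that is every gene symbol of the form Col, a type number, a and a chain number. There were 44 of them among the 37203 gene symbols of the count table. Collagens are the main structural proteins of the vessel wall. Each is built from 3 alpha chains wound into a triple helix, and each chain is the product of its own gene. Fibrillar collagens carry the load of the wall, type IV collagens form the mesh of the basement membrane around smooth muscle and under endothelium, type VI forms beaded microfibrils at the cell surface, and the fibril-associated collagens with interrupted helices (FACITs) decorate fibrils or basement membrane zones. Arterial smooth muscle cells, adventitial fibroblasts and the Schwann cells of perivascular nerves all make collagen.

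The arteries came from 8-week-old Sprague-Dawley (SD) rats in 3 groups of 3, named here normal, 1 h and 4 h. The ischemia groups were bled through a catheter in a femoral artery under pentobarbital, with ischemia time counted from the moment the model stood, and the SMA was removed 1 h or 4 h later. The normal group had no ischemia, and the sources used here do not say whether it was anaesthetised or catheterised. Each library is bulk RNA of whole artery tissue. The study used these rats to ask how pathways of the mitochondria change early and late in ischemia.

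Total counts ran from 13114273 to 15504240 per library. Levels are given as CPM, the usual counts-per-million unit on library sizes scaled by the TMM method, so that 1 CPM stood for 12.1 to 17.9 counts. All 10 smooth muscle markers were detected, with a summed level of 11820 to 52642 CPM in the normal arteries, 13665 to 50273 CPM at 1 h and 25941 to 73130 CPM at 4 h. The 12 Schwann cell markers summed to between 164 and 4485 CPM in the normal group, 1007 and 2344 CPM at 1 h and 408 and 2163 CPM at 4 h. The 14 sympathetic neuron markers summed to between 6334 and 6569 CPM in replicates 1 and 3 at 1 h and replicate 3 at 4 h, and to between 26.6 and 705 CPM in the other 6 libraries. Normal replicate 1 stood apart from the rest, with the lowest smooth muscle sum and the highest Schwann cell sum of all 9. Its sums for fibroblast (4858 CPM), endothelium (1706 CPM) and adipocyte markers (2655 CPM) were the highest as well. The markers of fibroblasts summed to between 1641 and 4858 CPM, of endothelium to between 721 and 1706, of adipocytes to between 423 and 2655, of macrophages to between 48.4 and 252 and of exocrine pancreas to between 5.15 and 185, with ranges that overlapped between the groups.

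No collagen gene passed the test in any comparison. Of the 44 genes, 40 had enough counts to be tested, and Col6a4, Col9a1, Col10a1 and Col26a1 did not, with means from 0.0751 to 0.536 CPM. In the edgeR quasi-likelihood test, 0 of the 40 were called at 1 h against normal, 0 at 4 h against normal, 0 at 4 h against 1 h and 0 over the 3 groups together, where called means an adjusted p under 0.05 with a fold over 1.5. The same rule called 0.0581%, 0.0904%, 0.00% and 0.0388% of all 15482 genes tested. DESeq2 also called 0 of the 40 in each comparison, beside 4.53%, 3.91%, 0.00% and 4.32% of all genes. The p-values measure the spread between these 9 arteries, and in bulk tissue fewer cells of a type and less RNA per cell cannot be told apart.

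At an unadjusted p under 0.05 in edgeR, 0 of the 40 collagen genes stood out at 1 h, where 16.7% of all genes did. At 4 h there were 3, beside 12.4% of all genes, namely Col4a1 on the higher side and Col6a5 and Col17a1 on the lower side. Against 1 h the 4 h group had 0, beside 2.58% of all genes, and over the 3 groups together Col6a5 alone reached that level, beside 11.4%. DESeq2 gave 3, 4, 0 and 2 collagen genes at that level in the same order, beside 21.0%, 15.1%, 3.62% and 15.7% of all genes. Without normal replicate 1, 8 collagen genes had an unadjusted p under 0.05 at 1 h and 8 at 4 h, beside 17.1% and 10.1% of all genes. They included Col9a2, Col9a3, Col16a1, Col27a1 and Col28a1 in both comparisons, all on the higher side. Col6a1 (log2 fold change -1.22) and Col6a2 (-1.29) were among those at 1 h and lay on the lower side. Without that library 0 collagen genes were called at 1 h and 0 at 4 h, beside 0.00635% and 0.0127% of all genes. The median log2 fold change of the 40 genes was -0.0048 at 1 h, 0.19 at 4 h and 0.25 at 4 h against 1 h, where the medians over all genes were -0.0076, 0.027 and -0.040. Scaling by library size alone shifted all genes at 4 h alike, to a median of -0.149 over all genes and -0.019 over the collagen genes. The collagen medians rested on single arteries, as the one at 1 h was -0.314 without replicate 2 at 1 h, the one at 4 h was 0.302 without normal replicate 1 but 0.0487 without replicate 1 at 4 h, and the one at 4 h against 1 h was 0.0968 without replicate 1 at 4 h and 0.541 without replicate 2 at 1 h.

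**Figure D1:**
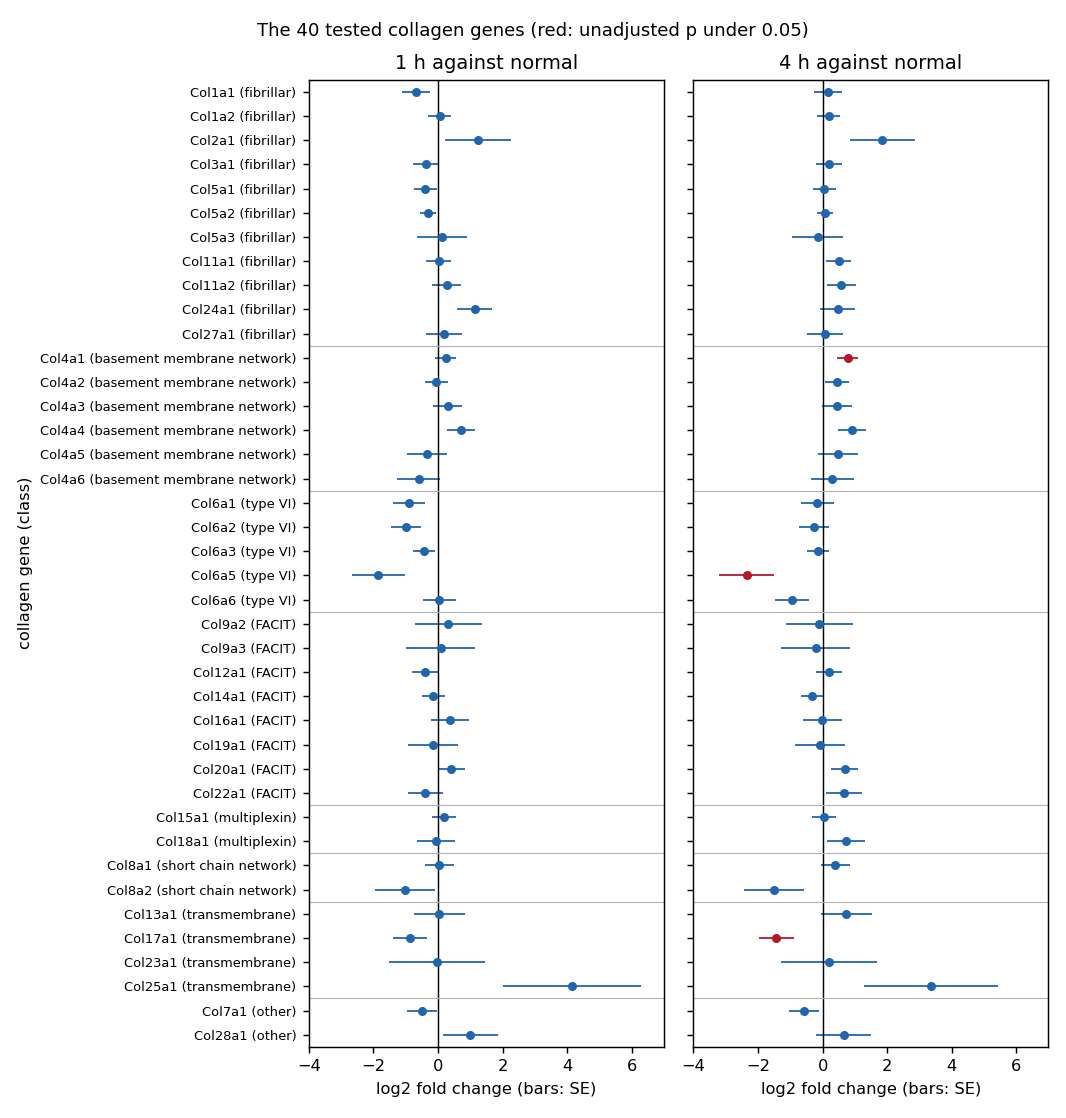
Fitted log2 fold change with its standard error (x axis) for the 40 tested collagen genes (y axis, by class) at 1 h (left) and 4 h (right) against the normal group, with unadjusted p under 0.05 in red. No gene is red at 1 h, and Col4a1 (0.78) on the higher side and Col6a5 (-2.36) and Col17a1 (-1.43) on the lower side are red at 4 h.

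The share of a library's counts that fell on collagen genes was close to 1% in every artery. It was 1.17%, 1.101% and 1.08% in the normal arteries, 0.934%, 1.11% and 0.838% at 1 h and 1.41%, 0.995% and 1.16% at 4 h. Replicate 1 at 4 h held the highest share and replicate 3 at 1 h the lowest, and every pair of groups overlapped. The means were 1.118% ± 0.0488 (SD, n = 3), 0.960% ± 0.137 and 1.19% ± 0.209. By a two-sided exact permutation test, for which 0.1 is the smallest p that 3 against 3 can give, the difference of -0.159 percentage points at 1 h had p = 0.3, that of 0.0677 at 4 h had p = 0.8, and that of 0.226 between 4 h and 1 h had p = 0.2. The difference at 4 h turned to -0.0435 without replicate 1 of that group (p = 0.6 by the same exact test). Mitochondrial genes took 9.37% to 29.8% of counts, and of the counts outside them the collagen share was 1.42%, 1.35% and 1.54% in the normal arteries, 1.196%, 1.31% and 0.924% at 1 h and 1.86%, 1.34% and 1.302% at 4 h. On that total all 3 arteries at 1 h lay below all 3 normal ones, by 0.289 percentage points on average (exact permutation p = 0.1, the smallest possible), while 4 h still overlapped the normal group (0.0662, p = 1 by the same exact test). As a sum of TMM-scaled CPM the difference at 4 h was 0.230% of a library (exact permutation p = 0.4).

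**Figure D2:**
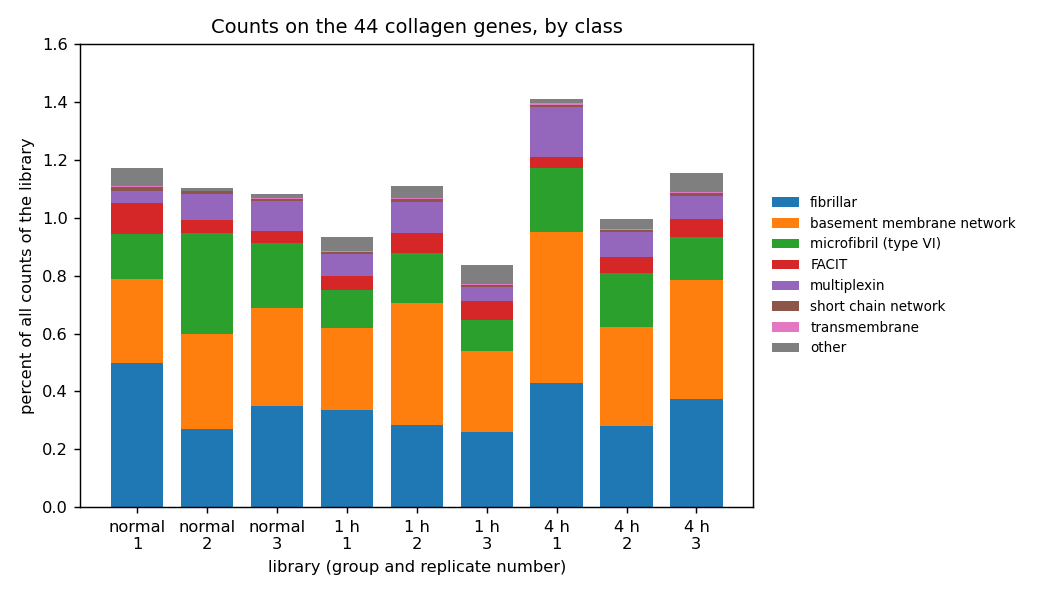
Percent of all counts in each library (y axis) that fell on the 44 collagen genes, stacked by collagen class, for the 3 libraries of each group (x axis). The stacks reach from 0.838% in replicate 3 at 1 h to 1.41% in replicate 1 at 4 h, and normal replicate 1 has the tallest fibrillar block.

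The make-up of the collagen counts was also compared. Counts follow transcript length as well as number, so a class's share is read only between libraries. Type IV chains took 24.6%, 29.8% and 31.2% of collagen counts in the normal arteries, 30.5%, 37.8% and 33.5% at 1 h and 37.1%, 34.6% and 35.8% at 4 h. All 3 arteries at 4 h lay above all 3 normal ones, and the means were 28.6% ± 3.52 (SD, n = 3) and 35.8% ± 1.23 (exact permutation p = 0.1, adjusted p = 0.955 over 30 comparisons of shares of collagen counts). Besides the classes, those 30 took in Col1a1, Col1a2 and Col3a1 as a set and the collagen genes as a whole, whose share is always 100%. Type VI chains took 13.5%, 31.5% and 20.7% of collagen counts in the normal arteries, then 13.9%, 15.7% and 12.6% at 1 h and 15.7%, 18.6% and 12.8% at 4 h. Normal replicates 2 and 3 were the highest of the 9, while normal replicate 1 was within the ischemic range. Fibrillar chains ran from 24.5% in normal replicate 2 to 42.6% in normal replicate 1, so that the normal group alone spanned the full range.

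Among the fibrillar genes, the 2 type I chains and type III were measured in every artery, and 11 of 11 members of the class were tested. Col1a1 was at 863, 471 and 928 CPM in the normal arteries, 660.1, 447 and 314 CPM at 1 h and 1285, 599 and 665 CPM at 4 h. Col3a1 was at 1719, 983 and 1843 CPM in the normal arteries, 1576, 1162 and 779.7 CPM at 1 h and 2397, 1362 and 1472 CPM at 4 h. Both genes, which code for the chains of the main interstitial fibrils, were highest in replicate 1 at 4 h and lowest in replicate 3 at 1 h, and the groups overlapped. The log2 fold change of Col1a1 was -0.67 ± 0.43 (SE) at 1 h and 0.17 ± 0.43 at 4 h (adjusted p = 0.408 and 0.895). That of Col3a1 was -0.37 ± 0.40 at 1 h and 0.20 ± 0.40 at 4 h (adjusted p = 0.627 and 0.864). Col1a2 was at 40.03, 19.3 and 34.4 CPM in the normal arteries, 34.9, 43.8 and 19.05 CPM at 1 h and 36.5, 39.8 and 30.97 CPM at 4 h, and its log2 fold changes were 0.058 ± 0.35 and 0.19 ± 0.35 (adjusted p = 0.941 and 0.851). Col1a2 codes for the other chain of type I collagen, and its groups overlapped as well.

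The ratio of Col1a1 to Col3a1 kept between 0.385 and 0.536, while Col1a1 ranged 4.10-fold and Col3a1 3.07-fold over the 9 arteries. It was 0.502, 0.479 and 0.503 in the normal arteries, 0.419, 0.385 and 0.402 at 1 h and 0.536, 0.440 and 0.452 at 4 h. Every artery at 1 h lay below every artery of both other groups, although the level of each gene overlapped. The mean ratio was 0.495 ± 0.0138 in the normal group, 0.402 ± 0.0172 at 1 h and 0.476 ± 0.0523 at 4 h (SD, n = 3). Exact permutation p was 0.1 for 1 h against normal and for 4 h against 1 h, the smallest that 3 against 3 can give, and 0.7 after adjustment over the 21 comparisons made of 7 gene pairs. The ratio of Col1a1 to Col1a2 was 21.6, 24.3 and 26.9 in the normal arteries, 18.9, 10.2 and 16.5 at 1 h and 35.2, 15.1 and 21.5 at 4 h. It was lower in all 3 arteries at 1 h than in all 3 normal ones (exact permutation p = 0.1, adjusted p = 0.7). Neither ratio is corrected for transcript length, so it is no measure of how many transcripts of each chain there were. Col1a2 had far fewer counts than Col1a1 in every library, 265 to 715 against 5103 to 15537, and whether the annotation or the treatment of reads with several matches lowered them is not given in the sources used here.

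The type V and XI chains, which co-assemble with type I and set fibril width, overlapped between all groups. Col5a1 was at 316, 504 and 382 CPM in the normal arteries, 314, 396 and 205 CPM at 1 h and 594, 353 and 299 CPM at 4 h. Col5a2 was at 404, 441 and 396 CPM in the normal arteries, 284, 423 and 289 CPM at 1 h and 545, 368 and 402 CPM at 4 h. Col5a2 had the narrowest range over the 9 libraries of the 30 collagen genes with a mean of at least 10 CPM, 1.92 from lowest to highest, where the median of these genes was 4.62 and that of the 9453 genes of such a level with no library at 0 was 2.16. Col5a3 was at 554, 35.3 and 156 CPM in the normal arteries, 291, 231 and 292 CPM at 1 h and 145, 217 and 308 CPM at 4 h. Col5a3, the third type V chain, had normal replicate 1 as its highest and normal replicate 2 as its lowest artery, a 15.7-fold range inside one group. Col11a1 was at 213, 100.1 and 83.2 CPM in the normal arteries, 111, 167 and 123 CPM at 1 h and 217, 209 and 135 CPM at 4 h. Col11a2 was at 27.04, 7.66 and 18.2 CPM in the normal arteries, 19.1, 27.6 and 17.1 CPM at 1 h and 18.02, 36.7 and 24.5 CPM at 4 h. Their log2 fold changes at 4 h were 0.50 ± 0.38 and 0.58 ± 0.46 (adjusted p = 0.606 and 0.62), and that of Col11a1 was 1.03 ± 0.293 without normal replicate 1 (adjusted p = 0.328 in edgeR). Col27a1 was at 120.3, 19.6 and 43.7 CPM in the normal arteries, 67.96, 55.1 and 85.9 CPM at 1 h and 51.7, 72.7 and 69.5 CPM at 4 h, again with both ends of the range in the normal group. Without normal replicate 1 the log2 fold changes at 1 h were 1.503 ± 0.613 for Col5a3 (adjusted p = 0.287 in edgeR) and 1.14 ± 0.377 for Col27a1 (adjusted p = 0.282), where they were 0.13 ± 0.78 and 0.19 ± 0.56 with it. The other 2 fibrillar genes, Col2a1 and Col24a1, stayed at or below 3.30 CPM.

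Type IV collagen, the basement membrane network, was tested in all of its genes. Its 6 genes lie as 3 pairs, each pair head to head on one chromosome with the start sites close together and transcribed away from each other. In the RefSeq promoter table of the GRCr8 assembly, 76 bases lie between the starts of Col4a1 and Col4a2, 412 between those of Col4a3 and Col4a4 and 1414 between those of Col4a5 and Col4a6. The stretch between Col4a1 and Col4a2 is printed because both genes of the pair are read from it, and that before Col4a5 because this gene had the smallest adjusted p of its class for following the smooth muscle markers, as given further on. They are chr16:84885521-84885596 on the plus strand and chrX:109907109-109907358 on the plus strand, 5′ to 3′, with the GC box GGGCGG on either strand in capitals.
between Col4a1 and Col4a2: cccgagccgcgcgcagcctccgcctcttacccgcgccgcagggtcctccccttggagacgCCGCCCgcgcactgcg
Col4a5: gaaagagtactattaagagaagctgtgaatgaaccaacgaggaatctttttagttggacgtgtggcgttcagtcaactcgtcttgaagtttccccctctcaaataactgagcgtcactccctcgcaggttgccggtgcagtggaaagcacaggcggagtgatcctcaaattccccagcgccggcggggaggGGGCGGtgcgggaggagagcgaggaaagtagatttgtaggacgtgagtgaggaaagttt
Each of the printed stretches holds 1 GC box and neither a CCAAT nor a TATAAA. The first is only 76 bases long. In the 250 bases before its own start, Col4a1 has 1 GC box and 1 CCAAT box, and Col4a2 has 2 GC boxes and 1 CCAAT box. The build behind the counts is not given in the sources used here, so these positions are those of the promoter table.

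Col4a1 was at 1354, 1189 and 1543 CPM in the normal arteries, 1435, 2064 and 1301 CPM at 1 h and 3112, 1893 and 2010.0 CPM at 4 h. All 3 arteries at 4 h were above all 3 normal ones, and replicate 1 at 4 h was the highest. The group means were 1362 ± 177, 1599.8 ± 407 and 2338 ± 673 CPM, and the log2 fold change at 4 h was 0.78 ± 0.33 (adjusted p = 0.389 in edgeR), with 0.49 to 0.91 when one library was left out. Col4a2 was at 856, 949 and 1262 CPM in the normal arteries, 896, 1312 and 749 CPM at 1 h and 2030.0, 1089 and 1067 CPM at 4 h. Its highest value was also replicate 1 at 4 h, but the other arteries at 4 h lay within the normal range, and its log2 fold change was 0.45 ± 0.37 (adjusted p = 0.631). Col4a1 and Col4a2 code for the chains of the common basement membrane network. Their ratio was 1.58, 1.25 and 1.22 in the normal arteries, 1.602, 1.57 and 1.74 at 1 h and 1.53, 1.74 and 1.88 at 4 h, and it was lowest in normal replicates 2 and 3 (exact permutation p = 0.2 for each ischemia group against normal, adjusted p = 0.7).

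Col4a3 was at 9.74, 30.7 and 29.6 CPM in the normal arteries, 23.9, 41.98 and 19.9 CPM at 1 h and 39.3, 30.5 and 25.8 CPM at 4 h. Col4a4 was at 2.296, 5.47 and 3.84 CPM in the normal arteries, 4.01, 9.63 and 5.34 CPM at 1 h and 6.697, 7.38 and 7.79 CPM at 4 h. Col4a4 was higher in all 3 arteries at 4 h than in all 3 normal ones, with a log2 fold change of 0.91 ± 0.42 (adjusted p = 0.428), and its counts ran only from 41 to 144. Col4a3 overlapped between the groups (0.45 ± 0.46, adjusted p = 0.698). Col4a5 was at 199.6, 824 and 759.5 CPM in the normal arteries, 402, 798 and 204 CPM at 1 h and 1018, 867 and 583 CPM at 4 h. Col4a6 was at 36.4, 148 and 151 CPM in the normal arteries, 80.2, 115 and 26.5 CPM at 1 h and 212, 123 and 77.9 CPM at 4 h. The last pair moved together, lowest in normal replicate 1 and in replicate 3 at 1 h and highest in replicate 1 at 4 h, and the ratio of Col4a5 to Col4a6 stayed between 4.81 and 7.69. The log2 fold changes at 4 h were 0.47 ± 0.62 and 0.30 ± 0.67 (adjusted p = 0.779 and 0.882).

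Taken by counts, 6 of the 6 type IV genes were above 0 at 4 h, with a median of 0.46, and 3 of 6 at 1 h, with a median of 0.090. Scaling by library size alone kept 6 of 6 above 0 at 4 h with a median of 0.31, and 5 of 6 remained above 0 without normal replicate 1 (median 0.21) or without replicate 1 at 4 h (median 0.25). None was called. Col4a1 and Col4a4 were the 2 members of all 40 whose 4 h arteries did not overlap the normal ones on the higher side, and Col6a5 and Col17a1 the 2 on the lower side, where 7.93% and 10.8% of all genes did so. The 10 smooth muscle markers were also on the higher side at 4 h, 10 of 10 above 0 with a median of 0.40 and 0 called. In the edgeR fit on these markers given further on, Col4a3, Col4a5 and Col4a6 had a called slope and Col4a2 did not. Nor did Col4a1 (0.17 ± 0.12, adjusted p = 0.357) or Col4a4 (0.35 ± 0.17, adjusted p = 0.238). The part of smooth muscle in the type IV values at 4 h was not tested.

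**Figure D3:**
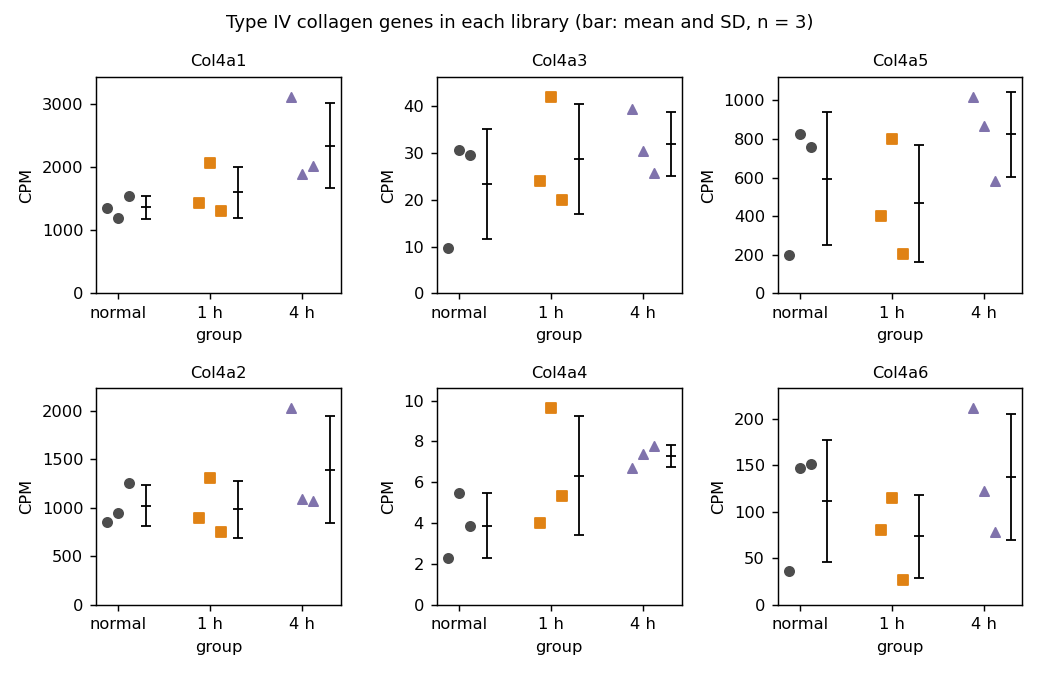
CPM (y axis, from 0) of the 6 type IV collagen genes in the 3 libraries of each group (x axis), with the mean and SD (n = 3) as a bar beside the points. The 4 h points of Col4a1 and Col4a4 lie above all normal points, while Col4a2, Col4a3, Col4a5 and Col4a6 overlap.

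Type VI genes lay on the other side of 0. Of the 5 tested, 4 were below 0 at 1 h, with a median of -0.90, and 5 were below 0 at 4 h, with a median of -0.27. The counts were the same under each of the 3 scalings tried, and the median at 4 h was -0.48 by library size alone and -0.56 without normal replicate 1. At 1 h all 10 smooth muscle markers (median -0.32), 9 of 11 fibroblast markers (median -0.48) and 8 of 9 endothelial markers (median -0.44) were below 0 too, and with a nerve marker score as a covariate the type VI median at 1 h was -0.31. The part of these cells in the type VI values was not tested. Col6a1 was at 504, 1494 and 1016 CPM in the normal arteries, 544, 764 and 312 CPM at 1 h and 1238, 916 and 549 CPM at 4 h. Col6a2 was at 550.1, 1539 and 908 CPM in the normal arteries, 480.4, 679 and 346 CPM at 1 h and 1053, 935 and 499 CPM at 4 h. Both chains were highest in normal replicate 2 and lowest in replicate 3 at 1 h, and normal replicate 1 lay in the range of the ischemic arteries. The log2 fold changes at 1 h were -0.90 ± 0.50 for Col6a1 and -0.99 ± 0.46 for Col6a2 (adjusted p = 0.356 and 0.311), and at 4 h -0.16 ± 0.50 and -0.27 ± 0.46. The ratio of the pair, which shares 1 heterotrimer, held between 0.903 and 1.18 in all 9 arteries while Col6a1 ranged 4.79-fold and Col6a2 4.45-fold. Col6a3 was at 279, 281 and 554 CPM in the normal arteries, 264, 357 and 209 CPM at 1 h and 421, 303 and 293 CPM at 4 h, with its highest value in normal replicate 3. Col6a5 was at 6.44, 6.42 and 2.73 CPM in the normal arteries, 2.74, 1.34 and 0.246 CPM at 1 h and 1.57, 1.08 and 0.396 CPM at 4 h. All 3 arteries at 4 h were below all 3 normal ones, and 1 of the arteries at 1 h reached into the normal range. Its log2 fold change was -1.85 ± 0.82 at 1 h and -2.36 ± 0.84 at 4 h (adjusted p = 0.303 and 0.31), on 4 to 115 counts per library. Col6a6, the fifth member tested, had a mean of 5.10 CPM.

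Among the 30 genes with a mean of at least 10 CPM, the FACITs Col9a3 and Col9a2 had the widest ranges. Col9a2 was at 29.4, 0.949 and 4.43 CPM in the normal arteries, 11.04, 14.2 and 18.1 CPM at 1 h and 3.06, 14.9 and 14.4 CPM at 4 h. Col9a3 was at 76.5, 2.26 and 10.2 CPM in the normal arteries, 20.2, 39.4 and 35.3 CPM at 1 h and 7.61, 37.2 and 31.96 CPM at 4 h. These genes, for chains of type IX collagen, best known from cartilage, followed each other from artery to artery, at a ratio of Col9a3 to Col9a2 between 1.83 and 2.77, although Col9a3 alone ranged 33.8-fold. Both ends of that range, normal replicate 1 and normal replicate 2, were in the normal group. Their log2 fold changes at 4 h were -0.11 ± 1.04 and -0.21 ± 1.07, which became 2.0 ± 0.846 and 2.04 ± 0.844 without normal replicate 1 (adjusted p = 0.494 and adjusted p = 0.485 in edgeR). The 6 chondrocyte markers, of which 4 passed the filter and 1 had no count in any library, summed to between 8.96 and 20.4 CPM, and their part in the type IX values was not tested.

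Col12a1 was at 47.9, 88.2 and 127 CPM in the normal arteries, 74.99, 79.8 and 43.8 CPM at 1 h and 142, 74.4 and 84.3 CPM at 4 h. Col14a1 was at 501, 259 and 252 CPM in the normal arteries, 243, 388 and 286 CPM at 1 h and 185, 337 and 290.2 CPM at 4 h. Both code for FACITs that bind the surface of type I fibrils, and their groups overlapped. Col16a1 was at 221, 35.4 and 66.5 CPM in the normal arteries, 109.9, 165 and 143 CPM at 1 h and 68.9, 120.5 and 134 CPM at 4 h, with the same order of the normal arteries as Col9a3. Its log2 fold change at 1 h was 0.37 ± 0.60, and 1.45 ± 0.396 without normal replicate 1 (adjusted p = 0.27 in edgeR). Col19a1 was at 3.75, 27.6 and 15.1 CPM in the normal arteries, 9.77, 26.3 and 5.16 CPM at 1 h and 18.02, 17.99 and 7.79 CPM at 4 h, the reverse order in the normal group, since replicate 1 was lowest and replicate 2 highest. Col22a1 was at 10.4, 16.3 and 9.53 CPM in the normal arteries, 9.83, 11.8 and 6.08 CPM at 1 h and 26.5, 25.9 and 5.48 CPM at 4 h. Replicates 1 and 2 at 4 h were the highest for Col22a1 and replicate 3 at 4 h the lowest of all 9, so that its group at 4 h held both ends (log2 fold change 0.67 ± 0.56, adjusted p = 0.636). Col20a1 had a mean of 7.45 CPM and a log2 fold change at 4 h of 0.68 ± 0.42 (adjusted p = 0.539).

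The multiplexins and short-chain collagens sit in basement membrane zones and in the matrix under vessel endothelium. Col18a1 was at 336, 865 and 1128 CPM in the normal arteries, 732, 1092 and 405 CPM at 1 h and 2118, 1019.6 and 706 CPM at 4 h. Col18a1, whose product is the parent of endostatin, was highest in replicate 1 at 4 h and lowest in normal replicate 1, and its log2 fold change at 4 h was 0.72 ± 0.59 (adjusted p = 0.632). Col8a1 was at 21.6, 75.6 and 61.5 CPM in the normal arteries, 73.2, 54.9 and 34.6 CPM at 1 h and 80.04, 60.6 and 68.6 CPM at 4 h. Col8a2 was at 116, 13.9 and 15.6 CPM in the normal arteries, 14.7, 45.7 and 11.00 CPM at 1 h and 7.36, 21.1 and 22.9 CPM at 4 h. Type VIII is a network collagen made by vascular cells, and its genes did not run in parallel. Normal replicate 1 was the lowest of 9 for Col8a1 and the highest for Col8a2. The log2 fold change of Col8a2 at 4 h, -1.502 ± 0.93 (adjusted p = 0.546), ran over -1.92 to 0.22 when single libraries were left out, the last without normal replicate 1. Col15a1, the other multiplexin, had a mean of 6.40 CPM and overlapped between groups.

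Of the transmembrane collagens, Col13a1 was at 7.73, 22.6 and 44.2 CPM in the normal arteries, 32.2, 30.6 and 13.9 CPM at 1 h and 85.7, 24.3 and 14.3 CPM at 4 h. Replicate 1 at 4 h was the highest artery and normal replicate 1 the lowest, and the log2 fold change at 4 h was 0.74 ± 0.78 (adjusted p = 0.712), which turned to -0.399 without replicate 1 at 4 h. Col17a1 was at 1.57, 0.949 and 1.92 CPM in the normal arteries, 1.14, 0.802 and 0.491 CPM at 1 h and 0.827, 0.415 and 0.396 CPM at 4 h, on 5 to 28 counts. This hemidesmosome collagen was lower in all 3 arteries at 4 h than in all 3 normal ones (-1.43 ± 0.55, adjusted p = 0.338 in edgeR). Col25a1 was at 0.728, 0 and 0.222 CPM in the normal arteries, 10.03, 0.735 and 7.25 CPM at 1 h and 0, 0 and 10.3 CPM at 4 h. Col25a1, a collagen of neurons, was above 1 CPM in replicates 1 and 3 at 1 h and replicate 3 at 4 h, the same 3 arteries in which the sympathetic neuron markers were high. All 3 arteries at 1 h were above all 3 normal ones, replicate 2 only just, and it was the only one of the 40 genes without overlap at 1 h, where 26.3% of all genes had none. The fitted log2 fold change was 4.16 ± 2.14 (adjusted p = 0.33), with a normal library at 0, so that it depends on the prior count. Col25a1 was singled out after its values were seen. Between 4 h and 1 h, 0 of the 40 were without overlap, beside 6.24% of all genes.

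Of the remaining collagens, Col28a1 was at 537, 47.7 and 111 CPM in the normal arteries, 461, 401 and 535 CPM at 1 h and 123, 373 and 599 CPM at 4 h. Col28a1 codes for a collagen of peripheral nerve, and its order over the arteries was that of neither group nor depth, with normal replicates 2 and 3 and replicate 1 at 4 h low and the other 6 high. Its log2 fold changes of 1.005 ± 0.86 at 1 h and 0.65 ± 0.85 at 4 h (adjusted p = 0.53 and 0.776) became 2.55 ± 0.696 and 2.2 ± 0.683 without normal replicate 1 (adjusted p = 0.27 and adjusted p = 0.358 in edgeR). Col7a1 was at 13.8, 23.8 and 19.7 CPM in the normal arteries, 6.22, 19.3 and 15.2 CPM at 1 h and 7.03, 16.5 and 14.9 CPM at 4 h, the anchoring fibril collagen, with overlap between all groups.

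**Figure D4:**
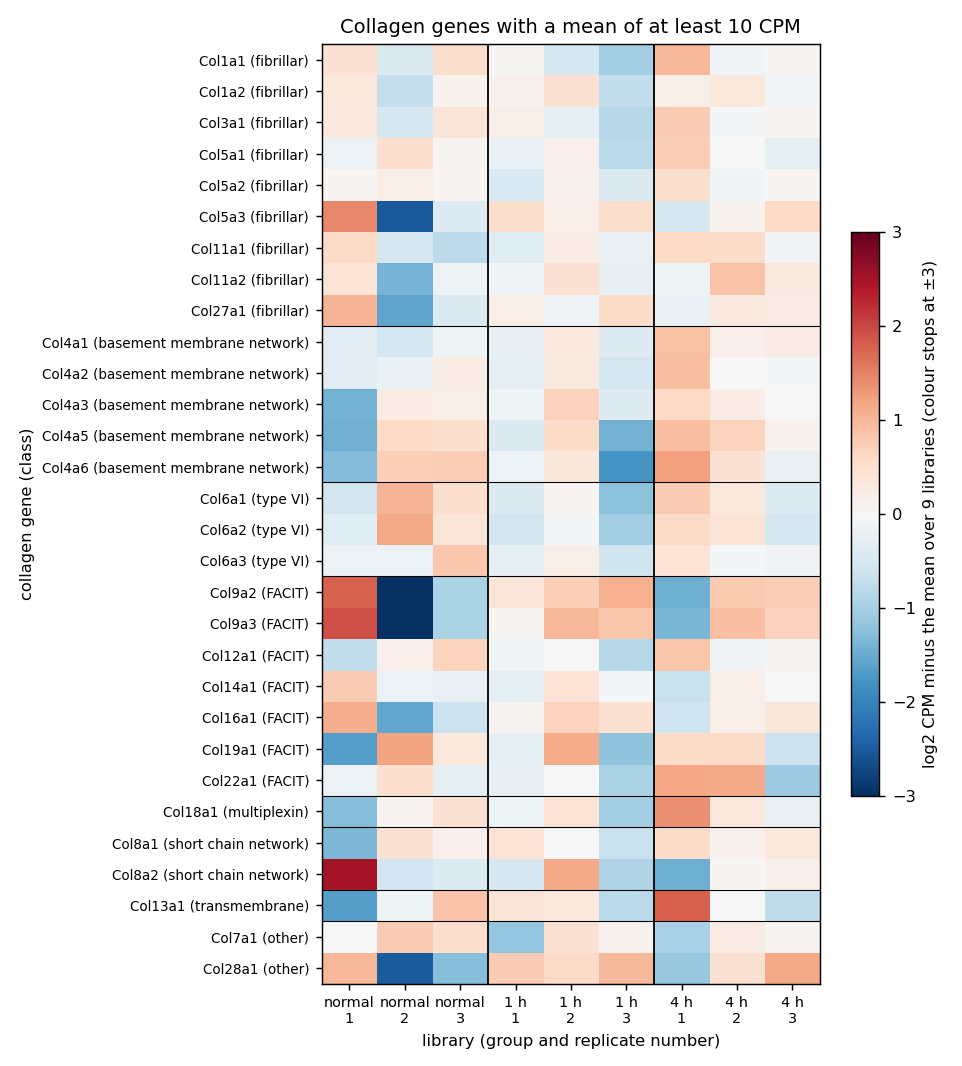
Each cell is the log2 CPM of a collagen gene (rows, by class) in one library (columns, by group) minus that gene's mean over the 9 libraries, for the 30 collagen genes with a mean of at least 10 CPM. Rows differ mostly inside groups: Col9a2, Col9a3, Col5a3, Col16a1 and Col28a1 run from red in normal replicate 1 to blue in normal replicate 2, and 14 of the 30 genes are highest in replicate 1 at 4 h.

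The highest and lowest collagen values were gathered in a few arteries. Of the 30 genes with a mean of at least 10 CPM, 14 had their highest value in replicate 1 at 4 h, 7 in normal replicate 1 and 4 in normal replicate 2, and 10 had their lowest in replicate 3 at 1 h, 8 in normal replicate 2 and 6 in normal replicate 1. A further fit was made, after the values had been seen, with group and the mean log2 CPM of a marker list as terms. Its slope is the change in a gene's log2 level per unit of the marker score among arteries of a group, tested across all 15482 genes. The same fit was made with the Schwann cell, the smooth muscle and the sympathetic neuron markers, none of which is a collagen gene.

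With the Schwann cell score, 6 of the 40 collagen genes were called, all with a positive slope, beside 1.98% of all genes. They were Col9a3 (1.22 ± 0.06 per unit, adjusted p = 0.00134), Col9a2 (1.17 ± 0.10, 0.00255), Col28a1 (0.84 ± 0.14, 0.0269), Col5a3 (0.80 ± 0.15, 0.0426), Col16a1 (0.61 ± 0.062, 0.00378) and Col27a1 (0.53 ± 0.10, 0.0445). The score was 7.91, 3.73 and 5.58 in the normal arteries, 5.82, 6.73 and 6.43 at 1 h and 4.75, 6.63 and 6.31 at 4 h, so the normal group spanned it most widely. Without normal replicate 1 the count was 0 of 41, and so was that of all genes (0.00%). It was 2 of 40 without normal replicate 2, 3 of 41 without normal replicate 3, without replicate 3 at 1 h or without replicate 1 at 4 h, and 4 to 6 without each of the other 4 libraries. In the same order, the share of all genes called was 0.507%, 1.03% to 1.13% and 1.23% to 2.21%.

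With the smooth muscle score, 7 of the 40 were called, again all with a positive slope, beside 3.88% of all genes. They were Col19a1 (1.13 ± 0.15, adjusted p = 0.00806), Col4a6 (0.98 ± 0.10, 0.0041), Col4a5 (0.88 ± 0.091, 0.00392), Col18a1 (0.78 ± 0.11, 0.0103), Col6a1 (0.65 ± 0.10, 0.0113), Col4a3 (0.62 ± 0.10, 0.013) and Col6a2 (0.56 ± 0.11, 0.0357). Of the genes named here none was among those called with the Schwann cell score. The score was 9.47, 11.7 and 11.7 in the normal arteries, 10.7, 11.7 and 9.75 at 1 h and 12.1, 11.7 and 10.7 at 4 h. Without normal replicate 1, 2 of 41 were called, beside 1.02% of all genes. Without each other library in turn 6 or 7 were, beside 2.69% to 4.89% of all genes.

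With the sympathetic neuron score, 4 of the 40 were called, beside 10.9% of all genes, so the share was no higher than the background. They were Col25a1 (1.21 ± 0.09, adjusted p = 8.04e-05), Col2a1 (0.36 ± 0.092, 0.0447, on 1 to 50 counts), Col22a1 (-0.24 ± 0.045, 0.0104) and Col6a2 (-0.17 ± 0.043, 0.0421). The count was 3 without normal replicate 1, 4 without normal replicate 3, 1 without replicate 3 at 4 h and 2 without each of the other 6. In the same order, the share of all genes called was 10.6%, 12.6%, 1.76% and 6.45% to 10.3%. The scores are not independent of each other, since normal replicate 1 had both the highest Schwann cell score and the lowest smooth muscle score of the 9 arteries.

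**Figure D5:**
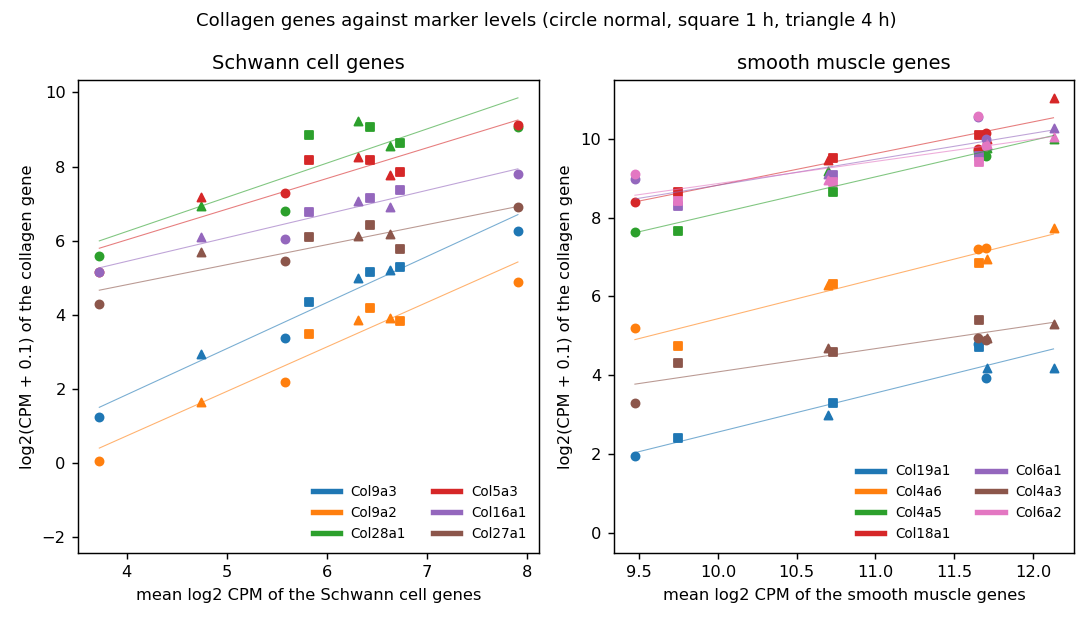
Left, log2(CPM + 0.1) of the 6 collagen genes called for the Schwann cell score against that score in the 9 libraries. Right, the same for the 7 genes called for the smooth muscle score. Circles are normal, squares 1 h and triangles 4 h, with a least-squares line per gene, and the line of each of the 13 genes slopes upward over scores from 3.73 to 7.91 on the left and from 9.47 to 12.1 on the right.

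Sequence before the start sites of these genes is given for one of each kind, as examples of collagen genes that followed the Schwann cell markers. Col5a3 is shown for a fibrillar chain, chr8:27625949-27626198 on the minus strand, and Col16a1 for a FACIT, chr5:147672846-147673095 on the plus strand, both from RefSeq (GRCr8), 5′ to 3′, ending at the base before the start, with GC boxes and the CCAAT box in capitals.
Col5a3: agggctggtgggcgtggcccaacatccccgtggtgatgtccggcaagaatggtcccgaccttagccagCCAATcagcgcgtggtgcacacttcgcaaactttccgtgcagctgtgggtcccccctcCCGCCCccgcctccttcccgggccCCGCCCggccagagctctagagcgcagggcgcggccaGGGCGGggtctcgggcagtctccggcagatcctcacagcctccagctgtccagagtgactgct
Col16a1: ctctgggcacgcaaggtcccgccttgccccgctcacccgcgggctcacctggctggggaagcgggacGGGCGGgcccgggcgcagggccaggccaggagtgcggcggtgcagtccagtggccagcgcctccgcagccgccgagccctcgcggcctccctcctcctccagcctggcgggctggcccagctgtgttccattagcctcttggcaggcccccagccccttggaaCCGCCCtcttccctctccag
Col5a3 holds 3 GC boxes and 1 CCAAT box in this window and Col16a1 holds 2 GC boxes. Over the 35 of 44 collagen genes that the promoter table lists, GGGCGG on either strand lay in the 250 bases before the start of 19 (54.3%), beside 30.5% of all 33469 promoters. CCAAT on either strand was in 11 (31.4%, beside 34.0%) and TATAAA in 4 (11.4%, beside 12.9%). A CCAAT box read from the other strand can share bases with a GC box that follows it. These shares are descriptions of letters and were not tested.

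The genes that make and finish collagen were examined next. Chains are hydroxylated on proline and lysine, folded with the chaperone Hsp47 (gene Serpinh1), exported with the help of Mia3, trimmed of their propeptides and cross-linked by lysyl oxidases. Of 34 such genes 31 were tested, and edgeR called 0 of them at 1 h, 0 at 4 h and 0 at 4 h against 1 h. At an unadjusted p under 0.05 in edgeR, Mia3 and Adamts3 were on the higher side and P4ha3, Pcolce and Loxl3 on the lower side at 1 h, beside 7.98% and 8.67% of all genes. At 4 h Adamts3 was on the higher side and P4ha3 and Loxl4 were on the lower side, beside 5.07% and 7.35% of all genes. DESeq2 had 6 and 5 genes of the list at that level, beside 21.0% and 15.1% of all genes. It called 1 of the 31 at 1 h, beside 4.53% of all genes called. That gene was P4ha3, a proline hydroxylase subunit (log2 fold change -2.78 ± 0.900, adjusted p = 0.0427 in DESeq2). P4ha3 was at 9.97, 1.02 and 4.06 CPM in the normal arteries, 0.201, 1.203 and 0.737 CPM at 1 h and 1.65, 0.912 and 0.924 CPM at 4 h, on 3 to 178 counts. Normal replicates 1 and 3 were the highest, and normal replicate 2 was within the range at 1 h, so the groups overlapped. Adamts3, P4ha3 and Loxl4 are named because of these values.

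Mia3 was at 104, 101 and 83.02 CPM in the normal arteries, 136, 124 and 139 CPM at 1 h and 128, 104 and 148 CPM at 4 h. This export factor was higher in all 3 arteries at 1 h than in all 3 normal ones (0.47 ± 0.18, adjusted p = 0.284 in edgeR). Of the 31 collagen-making genes tested, 7 had no overlap at 1 h (22.6%), beside 26.3% of all genes. At 4 h it was 3 (9.68%), beside 18.7%, so neither share was above that of all genes. Loxl3 was at 27.8, 35.4 and 31.5 CPM in the normal arteries, 15.9, 20.9 and 12.6 CPM at 1 h and 27.04, 26.7 and 15.4 CPM at 4 h. Loxl3, a lysyl oxidase, was lower in all 3 arteries of each ischemia group than in all 3 normal ones, with log2 fold changes of -0.94 ± 0.28 at 1 h and -0.45 ± 0.28 at 4 h (adjusted p = 0.232 and 0.542). Pcolce was at 35.2, 34.6 and 68.5 CPM in the normal arteries, 29.03, 25.2 and 13.4 CPM at 1 h and 47.5, 31.6 and 21.3 CPM at 4 h, and this enhancer of C-propeptide removal was lower at 1 h without overlap (-1.03 ± 0.42, adjusted p = 0.29). Bmp1 was at 141, 163 and 138 CPM in the normal arteries, 91.04, 135 and 83.8 CPM at 1 h and 184, 143 and 106 CPM at 4 h. Bmp1, the C-proteinase itself, showed the same order at 1 h (-0.52 ± 0.26, adjusted p = 0.327) and overlapped with the normal group at 4 h.

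P4hb was at 267, 303 and 323 CPM in the normal arteries, 274, 268 and 210.1 CPM at 1 h and 412, 295 and 242 CPM at 4 h. Serpinh1 was at 347, 347 and 758 CPM in the normal arteries, 546, 532 and 219.9 CPM at 1 h and 1147, 602 and 409 CPM at 4 h. Lox was at 94.1, 257 and 193 CPM in the normal arteries, 166, 231 and 92.3 CPM at 1 h and 378, 239.9 and 198 CPM at 4 h. These genes, for the beta subunit of prolyl hydroxylase, for Hsp47 and for the main lysyl oxidase, overlapped between groups, with replicate 1 at 4 h highest for each. The 11 hydroxylases tested were below 0 in 10 cases at 1 h (median -0.34) and above 0 in 7 at 4 h (median 0.092). With the nerve score as a covariate 6 of the 11 were above 0 at 1 h (median 0.026). In the fit without that covariate all 10 smooth muscle markers were below 0 at 1 h. The part of nerve and smooth muscle in the hydroxylase values was not tested. The count of hydroxylases above 0 at 4 h was 2 of 11 without replicate 1 of that group.

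Receptors, proteases and partners of collagen gave 0 called genes among 9, 5 and 11 tested, in each of the 3 comparisons in edgeR, and 0 in DESeq2. At an unadjusted p under 0.05 edgeR gave 1 receptor of 9 at 1 h, beside 16.7% of all genes, namely Lair1, at means of 0.161 ± 0.152, 0.848 ± 0.192 and 0.523 ± 0.423 CPM, 1 fibril-associated gene of 11 at 4 h against 1 h, beside 2.58% of all genes, namely Ogn, with a log2 fold change of 1.503 ± 0.61 (adjusted p = 0.856), and no other member of these lists in the 3 comparisons. Both genes are named because of these values. Itgb1 was at 608, 1549 and 1634 CPM in the normal arteries, 1206, 2410.3 and 831 CPM at 1 h and 2359, 1877 and 1254 CPM at 4 h. This shared beta chain of the collagen-binding integrins overlapped between groups and had a log2 fold change of 0.53 ± 0.53 at 4 h (adjusted p = 0.69). Mmp14 was at 209, 109 and 86.7 CPM in the normal arteries, 64.8, 112 and 80.4 CPM at 1 h and 108, 111 and 114 CPM at 4 h. Sparc was at 3608, 1710.5 and 3398 CPM in the normal arteries, 2993, 3050.4 and 2223 CPM at 1 h and 4819, 3618 and 3074 CPM at 4 h. Mmp14 codes for a membrane collagenase and Sparc for a collagen-binding matrix protein, and both overlapped between groups.

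Of the genes of the TGF-beta axis, which drives collagen transcription, none was called in edgeR, and those with an unadjusted p under 0.05 that are described here were Skil and Tgfbr1. Of the 12 tested, 2 had such a p at 1 h, both on the higher side, beside 7.98% of all genes. At 4 h 2 were on the higher and 1 on the lower side, beside 5.07% and 7.35%. Groups did not overlap for 6 of the 12 at 1 h and 4 at 4 h, beside 26.3% and 18.7% of all genes. This list was chosen with earlier results of these data known. Skil was at 38.9, 68.97 and 68.2 CPM in the normal arteries, 82.1, 184 and 96.6 CPM at 1 h and 165, 150.1 and 143 CPM at 4 h. Skil, a corepressor of SMAD proteins, was higher in every ischemic artery than in every normal one (1.04 ± 0.34 at 1 h and 1.38 ± 0.35 at 4 h, adjusted p = 0.246 and 0.169). DESeq2 called Skil at 4 h (adjusted p = 0.0121), beside 3.91% of all genes. Tgfbr1 was at 33.2, 41.2 and 41.6 CPM in the normal arteries, 31.4, 38.6 and 27.8 CPM at 1 h and 23.5, 26.8 and 26.2 CPM at 4 h. The receptor kinase was lower in all 3 arteries at 4 h than in all 3 normal ones (-0.60 ± 0.18, adjusted p = 0.24). Ctgf was at 139, 917 and 889.8 CPM in the normal arteries, 861, 1005 and 525 CPM at 1 h and 2229, 1206 and 756 CPM at 4 h, with overlap between groups at both times.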

How the data were processed

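The authors deposited 1 table of raw counts per gene symbol for 9 RNA sequencing libraries of rat SMA. Per the labels, reads were aligned with HISAT2. Its version, the counting tool, the genome build, the annotation and any use of strand are not given in the sources used here, so collagen genes that overlap others may share reads. Groups were taken from the sample titles, and the study describes 3 rats per group.

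Genes were filtered with filterByExpr, which left 15482 of 37203, scaled by TMM and tested with edgeR 4.0.16 (glmQLFit and glmQLFTest, limma 3.58.1, R 4.3.3) with group as the only term and all 9 libraries in 1 fit. Benjamini-Hochberg adjustment ran over all genes tested, and the SE of a log2 fold change was taken from its F value (the absolute change over the root of F). The calling rule asked for an adjusted p below 0.05 together with a fold above 1.5. Shares of counts and ratios of CPM between genes were compared by two-sided exact permutation tests. DESeq2 1.42.0, other scalings, no filter, only the compared groups, a replicate block, a nerve score and each library left out were alternatives, and the marker score fits were added after the data were seen. The test code was tested on simulated data.

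Named were the collagen genes with a mean of at least 10 CPM or an unadjusted p under 0.05, the 6 type IV genes, and of each gene list the most abundant gene and up to 4 with such a p and level. A gene that this rule names is not reported here. The members and all lists were chosen with earlier results of these data known. Transcript lengths were not used here, so levels were not compared between genes. Promoter sequences are from RefSeq (GRCr8), which listed 35 of the 44 genes by symbol. Col3a1, Col14a1, Col25a1, Col9a3, Col2a1, Col12a1, Col22a1, Col6a2 and Col1a1 were not matched.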

Additional observations from a re-analysis of the deposited data

How the results depend on the processing

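The count of called collagen genes was 0 under every alternative run, which were relative log expression or library size scaling, no filter, DESeq2, only the compared groups, the replicate block, the nerve, Schwann cell, sympathetic neuron and smooth muscle scores as covariates, and each library left out. The number of all genes called in the 3 pairwise comparisons and over the 3 groups together was 9, 14, 0 and 6 in edgeR but 702, 606, 0 and 669 in DESeq2, and the cause was not tested. DESeq2 called 1 collagen-making gene at 1 h, P4ha3, where edgeR called 0. The median collagen log2 fold change at 4 h was 0.444 with the Schwann cell score as a covariate, against 0.19 without it, and the cause was not tested. The difference in collagen share of counts at 4 h against normal ran from -0.0435 to 0.163 percentage points when single libraries were left out, and it was below 0 only without replicate 1 at 4 h. When single libraries were left out, the collagen genes called numbered 0 to 6 for the Schwann cell score, 1 to 4 for the sympathetic neuron score and 2 to 7 for the smooth muscle score. The share of all genes called varied too, from 0% to 2.21%, 1.76% to 12.6% and 1.02% to 4.89% in the same order. Collagen genes at an unadjusted p under 0.05 in edgeR numbered 0 to 8 at 1 h, 1 to 8 at 4 h and 0 to 3 at 4 h against 1 h when single libraries were left out, both values of 8 without normal replicate 1. Of all 15744 to 16045 genes tested, 1267 to 3752, 1534 to 2011 and 127 to 3295 had such a p in these fits. The log2 fold changes of the 47 genes named by rule changed sign under at least 1 alternative for 26 genes at 1 h, 22 at 4 h and 22 at 4 h against 1 h. Counting depth limits Col2a1, Col6a5, Col17a1 and Col25a1 among others, for which some libraries held under 10 counts.

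With the replicate block, 0 collagen genes were called, and 4, 4, 0 and 1 had an unadjusted p under 0.05 in the 3 pairwise comparisons and over the 3 groups together. Of all 15482 genes tested, 2781, 1759, 387 and 1782 had such a p with the block, in the same order. The collagen medians were -0.11, 0.25 and 0.29 with the block, and the share of counts had exact sign-flip p = 0.5, 0.75 and 0.5, where 0.25 is the smallest that 3 pairs can give. Same-numbered libraries of different groups correlated in their deviations from the group means at between -0.651 and 0.66. Libraries with different numbers did so at between -0.712 and 0.648. With so few libraries these correlations cannot settle whether the numbers pair the arteries. The block called 7, 7, 0 and 0 genes of all tested.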
